A study of Mus musculus with 6 samples.

Results

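Krüppel-like factors (KLFs) are zinc-finger transcription factors. Messenger RNA of 10 of them, Klf2, Klf3, Klf4, Klf5, Klf6, Klf7, Klf9, Klf10, Klf13 and Klf16, was looked for in mouse tumour cells after treatment with a pair of epigenetic drugs. Genes were chosen by symbol, and their probes were selected on the measured detection p, which had to be 0.01 or less against the negative controls on at least 1 of 6 arrays. This gave 16 probes of 9 genes, among 13943 named probes of 9192 genes. No named probe of Klf10, a TGFβ-inducible factor, was among them, and its level is not given here. All 9 measured genes were detected on all 6 arrays by their brightest probe. The genes were listed with earlier results of the same contrast known, so their differences below describe the samples and are not independent evidence about the family.

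TC-1/A9 is an MHC class I-deficient line that arose from TC-1, mouse lung cells of C57BL/6 background carrying the HPV16 E6/E7 oncogenes and activated human Ha-ras. Treated cultures (DAC/TSA) were kept for 48 h in 3 μM DAC, a deoxycytidine analogue that blocks DNA methyltransferases, and for 24 h more with 30 ng/ml TSA (trichostatin A), which blocks histone deacetylases. Untreated cultures were grown without either drug. Total RNA from 3 cultures of each group was hybridised to Illumina bead arrays, 1 array per culture.

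KLFs share a C-terminal set of zinc fingers that binds GC-rich DNA, among it CACCC boxes and GC boxes, which they partly share with the Sp factors. They differ in their N-terminal parts. Klf2, Klf4, Klf5, Klf6 and Klf7 are mostly known as activators that recruit acetyltransferases such as p300, Klf3 as a repressor that binds CtBP, and Klf9, Klf13 and Klf16 as factors that bind the corepressor Sin3A. In lung, Klf2 is known from the vessel wall and from late lung development, Klf4 from growth arrest of epithelial cells, and Klf5 from the maturation of the airway and alveolar epithelium.

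Most of the measured KLF genes were lower after DAC/TSA. Of the 9 genes, 8 were lower at an adjusted p of at most 0.01, 0 were higher, and Klf5 did not pass. Of the 8, 6 were at least 2-fold lower: Klf2, Klf3, Klf4, Klf7, Klf13 and Klf16. Over all 9192 genes tested, 21.4% were called lower and 22.5% higher, and 3.8% were lower by at least 2-fold. Of the probes, 3371 were called higher and 3374 lower. When arrays were scaled to their medians it was 1964 and 1279, with 6 KLF genes and 8.4% of all genes lower. The median log2 difference, DAC/TSA minus untreated, was -1.22 over the 9 KLF genes and 0.01 over all genes. Since the genes were listed with this contrast in view, nothing is read from these shares.

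Promoter sequences are shown for Klf2, Klf3 and Klf4, which were about 3-fold lower, and for Klf6, whose decrease was small. KLFs bind CACCC and GC boxes, and the DNA methyltransferases that DAC blocks act at CpG sites. Boxes and CpG sites can be read off the letters, while methylation cannot. They come from the RefSeq table of build GRCm38.p6, which held 7 of the 10 genes: Klf2, Klf3, Klf4, Klf6, Klf7, Klf9 and Klf13. Each sequence shown is the 150 bases before the start of the gene, 5′ to 3′ on its strand. For Klf7 the table uses a start 956 bases inside the outermost start of the gene, so its sequence is not shown. Capitals mark a CACCC box (CACCC, or GGGTG on the other strand), a GC box (GGGCGG, or CCGCCC on the other strand) and a match to the MEF2 motif.
Klf4 (chr4:55532476-55532625, minus strand): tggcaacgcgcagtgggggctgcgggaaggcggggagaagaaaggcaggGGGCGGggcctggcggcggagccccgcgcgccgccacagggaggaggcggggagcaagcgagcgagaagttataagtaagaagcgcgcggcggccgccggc
Klf2 (chr8:72318912-72319061, plus strand): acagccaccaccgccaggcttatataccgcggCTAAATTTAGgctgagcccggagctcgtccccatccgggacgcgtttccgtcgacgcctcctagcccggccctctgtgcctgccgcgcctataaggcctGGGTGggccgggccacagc
Klf3 (chr5:64803371-64803520, plus strand): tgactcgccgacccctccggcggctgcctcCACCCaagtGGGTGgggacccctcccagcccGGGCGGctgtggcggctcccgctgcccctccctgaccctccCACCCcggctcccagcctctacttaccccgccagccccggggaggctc
Klf6 (chr13:5861339-5861488, plus strand): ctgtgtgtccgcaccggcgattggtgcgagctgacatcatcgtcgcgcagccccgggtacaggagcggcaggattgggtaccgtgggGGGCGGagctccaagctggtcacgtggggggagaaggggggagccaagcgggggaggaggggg
These promoters differed in their boxes. Within the 150 bases, Klf4 and Klf6 each held 1 GC box and 0 CACCC boxes, Klf3 held 1 and 3, and Klf2 held 0 and 1 besides the MEF2 match. MEF2 factors are known to drive Klf2 in endothelium.

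The sequences were CpG-rich. Over the full window of 300 bases (250 before to 50 after the start) the 7 promoters held 16 to 40 CpG dinucleotides, with a median of 29. Klf4 had the most, and the fewest were in Klf7, counted at the inner start. The median was 21 over the 9595 promoters of tested genes and 7 over all 32841 promoters. Searched on both strands, CACCC occurred in 5 of 7 windows (57.5% of all promoters and 63.4% of those of tested genes), and GGGCGG in 6 of 7 (35.7% and 63.6%). The MEF2 motif occurred in 1 of 7, Klf2 (3.19% and 1.53%), CCAAT in 3 of 7 (37.4% and 37.6%) and TATAA in 2 of 7 (24.9% and 13.6%). These last 3 searches were chosen after the files had been seen. The methylation of these windows was not measured here, and the matches are a description of letters only.

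Levels below are log2 signals after quantile normalisation. Values of different probes are not set against each other, since probes differ in brightness. Differences are DAC/TSA minus untreated with the standard error of the limma fit, n = 3 arrays per group, and adjusted p-values are Benjamini-Hochberg values over all 17445 kept probes. In bulk RNA, fewer cells that express a gene and less of its RNA per cell cannot be told apart.

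Among the activators, Klf4, one of the factors used to reprogram cells to pluripotency, was about 3-fold lower. Its brightest probe read 8.01, 7.88 and 7.93 on the DAC/TSA arrays, against 9.53, 9.52 and 9.54 on the untreated arrays. The groups lay 1.51 log2 apart at their closest arrays, and the untreated arrays hardly varied. The difference was -1.59 ± 0.08, a level 3.01-fold lower (95% confidence interval 2.67 to 3.40, adjusted p = 1.66e-07). On the linear scale the mean signal was 246 after DAC/TSA and 740 in untreated cells.

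Klf2, known for quiescence of endothelium and T cells, was lower by a similar amount. It read 7.71, 7.88 and 7.87 in DAC/TSA cultures, against 9.25, 9.38 and 9.44 in untreated cultures. All treated arrays were lower, with a gap of 1.37 log2, and the level was 2.91-fold lower (2.53 to 3.34, adjusted p = 4.58e-07).

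Klf7, a factor of neuronal and fat tissue development, read 8.75, 8.58 and 8.48 after DAC/TSA, against 10.23, 10.16 and 10.15 without treatment. Again the groups stood apart, by 1.40 log2. The level was 2.98-fold lower (2.59 to 3.42, adjusted p = 4.34e-07).

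Klf5, which is known to promote proliferation of epithelial and smooth muscle cells and often to oppose Klf4, did not follow. Its probe read 11.44, 11.28 and 11.26 in DAC/TSA cultures, against 11.44, 11.33 and 11.30 in untreated cultures. The groups overlapped, and the array numbered 1 was the highest of each group. The difference was -0.03 ± 0.09, with an interval of -0.22 to 0.16 (adjusted p = 0.801), so a decrease of the size seen for Klf4 lay outside it. The mean linear signals were 2578 and 2628 in DAC/TSA and untreated cells.

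Klf6, an early-response gene of wounding that is often called a tumour suppressor, fell only slightly. It read 11.31, 11.22 and 11.29 after DAC/TSA, against 11.56, 11.63 and 11.60 in untreated cells. The groups did not overlap, yet only 0.25 log2 separated their closest arrays. The level was 1.25-fold lower (1.11 to 1.41, adjusted p = 0.00516). This call did not hold without DAC/TSA array 1, 2 or 3 (adjusted p = 0.0101, 0.0265 and 0.0168) or without untreated array 2 or 3 (0.0241 and 0.0196).

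**Figure D1:**
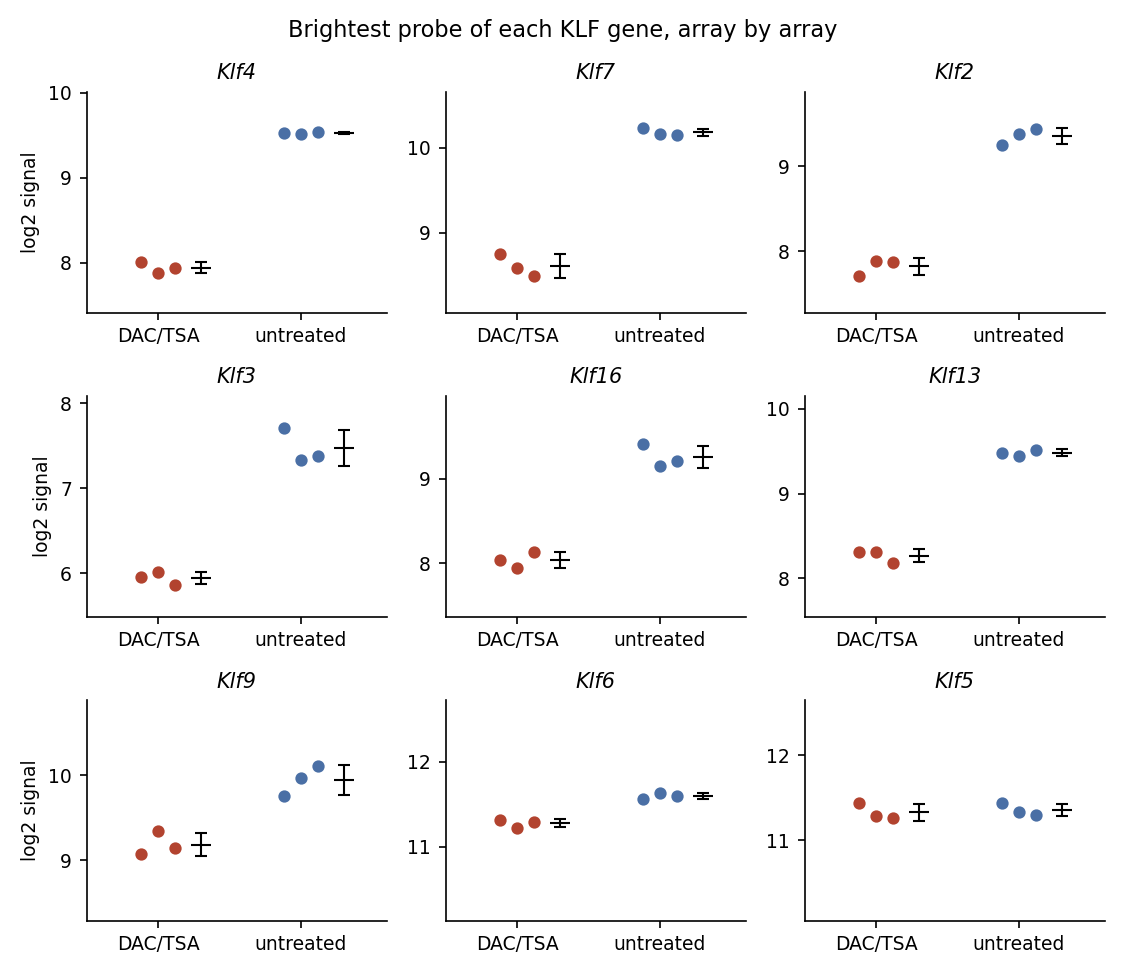
Log2 signal (vertical axis) of the brightest probe of the 9 KLF genes on each array, with DAC/TSA left of untreated; points are single arrays, the horizontal line is the mean and the error bar 1 SD (n = 3). In 8 panels all DAC/TSA points lie below all untreated points, and in the Klf5 panel the groups overlap. Over all 9192 genes tested, the groups did not overlap in 63.9%, in either direction.

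Klf3, the CtBP-binding repressor, fell to near the detection limit. Its single probe, designed on a cDNA clone, read 5.95, 6.01 and 5.86 in DAC/TSA cultures, against 7.71, 7.33 and 7.38 in untreated cultures. The treated values stood just above the lowest detected signals of these arrays, 5.80, 5.73 and 5.76. The difference was -1.53 ± 0.11, or 2.89-fold (2.45 to 3.42, adjusted p = 1.80e-06). With neqc background correction the difference was -2.06.

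The Sin3A-binding factors were also lower. By brightest probes they fell less than Klf2, Klf3, Klf4 and Klf7, and more than Klf5 and Klf6. The second probes of Klf4 and Klf7 gave -1.11 and -1.18, so the order against Klf4 and Klf7 depends on the probe. Klf16, first described as a regulator of dopamine receptor genes, read 8.04, 7.94 and 8.13 after DAC/TSA, against 9.40, 9.15 and 9.20 without it, and its level was 2.32-fold lower (2.01 to 2.69, adjusted p = 3.39e-06). Klf13, known as an activator of Ccl5 in T cells, read 8.31, 8.31 and 8.18 after DAC/TSA, against 9.48, 9.44 and 9.52, and was 2.31-fold lower (2.04 to 2.62, adjusted p = 1.18e-06). In both genes the closest arrays of the groups lay over 1 log2 apart, 1.02 for Klf16 and 1.12 for Klf13.

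Klf9, a target of glucocorticoid and thyroid hormone receptors, changed less than the brightest probes of the other Sin3A-binding factors, Klf13 and Klf16. It read 9.07, 9.34 and 9.14 in DAC/TSA cultures, against 9.76, 9.97 and 10.11 in untreated cultures. The arrays did not overlap, with a gap of 0.42 log2. The level was 1.70-fold lower (1.43 to 2.01, adjusted p = 0.000221), a call that did not hold when the arrays were scaled to their medians (-0.70, adjusted p = 0.0365). With the mean of each gene's probes, Klf13 gave -1.10 ± 0.08, Klf16 -0.84 ± 0.07 and Klf9 -0.76 ± 0.11. Klf16 and Klf9 then differed by less than the standard error of Klf9. Differences between genes were not tested.

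By their brightest probes, Klf4, Klf7, Klf2 and Klf3 lay within 0.06 log2 of each other, which is less than the standard error of any of them, so they have no order. With neqc they ranged from -2.06 (Klf3) to -1.64 (Klf7), and with the mean of each gene's probes from -1.54 (Klf2) to -1.34 (Klf4). Klf16 and Klf13 also differed from each other by less than their standard errors.

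Probes of the same gene moved in the same direction. All 16 probes had a negative difference, 14 of them past the threshold, against 19.3% of all kept probes called lower. Of the 16, 10 were at least 2-fold lower. The share at that cut was taken over genes only (3.8%) and not over all kept probes. Klf4 had 3 probes, with differences of -1.59, -1.11 and -1.31, and Klf7 had 3, with -1.57, -1.18 and -1.51. The second Klf13 probe gave -0.99 ± 0.09 (adjusted p = 1.19e-05). For these genes the brightest probe had the largest decrease, while probes of the same gene still differed by up to 0.48 log2.

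A pair of probes lay near the detection threshold. The second Klf16 probe read 5.40, 5.50 and 5.45 after DAC/TSA, against 5.77, 5.95 and 6.03 in untreated cells, and was detected on 0 of 3 and 2 of 3 arrays. Its detection p was 0.114 to 0.293 on the treated arrays, and 0.0171, 0.00427 and 0.00214 on untreated arrays 1, 2 and 3. Its difference, -0.46 ± 0.09 (adjusted p = 0.0016), is therefore given as measured and not as a fold. The second Klf6 probe was detected on 2 of 3 DAC/TSA arrays and 3 of 3 untreated arrays, and gave -0.24 ± 0.12 (adjusted p = 0.132). Only kept probes carried a name in the annotation used, so no named probe could lie outside the threshold.

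**Figure D2:**
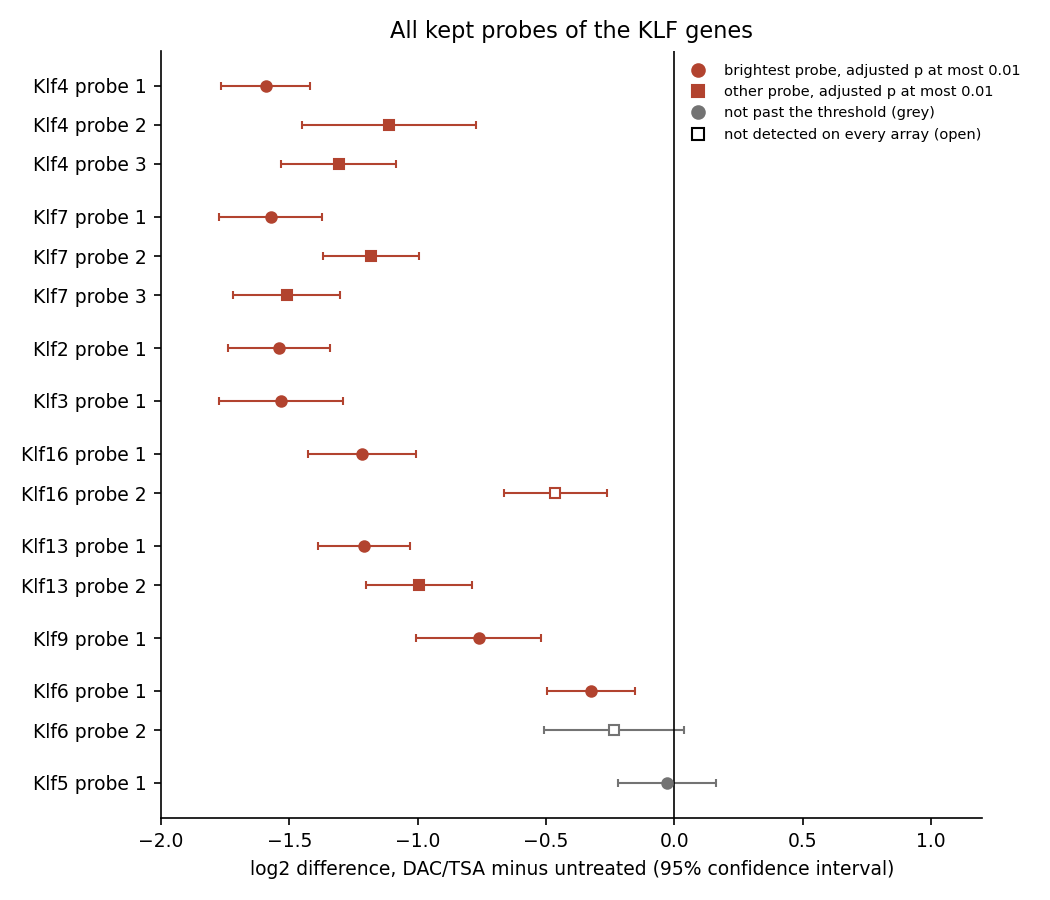
Log2 difference, DAC/TSA minus untreated (horizontal axis), of all 16 probes of the 9 KLF genes, with 95% confidence intervals of the limma fit (n = 3 arrays per group). All 16 points lie below 0, and the grey points are Klf5 and the second Klf6 probe.

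Among all 9192 genes ordered by decrease, Klf4 ranked 73, Klf7 77, Klf2 79 and Klf3 82, so that fewer than 1% of genes fell more than any of these. Klf16 and Klf13 ranked 195 and 199, Klf9 646 and Klf6 2126. Klf5 ranked 4254, near the middle. For scale, the median size of a log2 difference over all genes, whatever its sign, was 0.31, and the groups did not overlap in 63.9% of all genes.

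**Figure D3:**
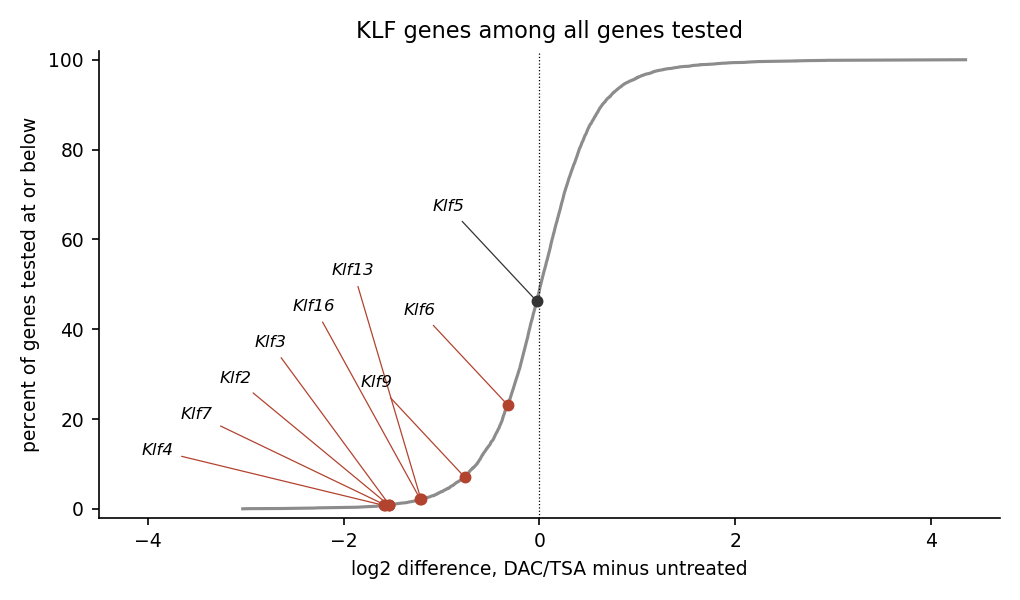
Percent of the 9192 genes tested (vertical axis) with a log2 difference, DAC/TSA minus untreated, at or below the value on the horizontal axis; points mark the KLF genes on that curve. Klf4, Klf7, Klf2 and Klf3 sit at the foot of the left tail, Klf6 on the rising part and Klf5 near 0.

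The profiles most like that of Klf4 were sought over the 6 arrays, as the Euclidean distance between log2 values centred on the untreated mean. This distance mostly picks genes whose difference is of similar size to that of Klf4, and shared regulation was not tested. The nearest were Nfatc4, a calcium-regulated transcription factor (distance 0.118, difference -1.55 ± 0.08), Adamts12, a secreted metalloprotease (0.124, -1.58 ± 0.09), and Adgrl3, an adhesion receptor (0.154, -1.66 ± 0.08). No KLF gene was higher, so no neighbour of an increase was sought.

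Relatives of the family were mostly not covered. Klf1, Klf8, Klf11, Klf12, Klf14, Klf15 and Klf17 had no named kept probe, and of 9 Sp factors Sp1 alone had one. Sp1 read 5.31, 5.47 and 5.66 after DAC/TSA, against 5.58, 5.86 and 5.84 in untreated cells, and was detected on 0 of 3 DAC/TSA and 2 of 3 untreated arrays. Its difference was -0.28 ± 0.11 (adjusted p = 0.0572, 0.00529 with the replicate number as a block and 0.00943 without untreated array 1), with no fold since the treated values were below detection.

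Of the proteins through which KLFs act, 9 of 12 listed cofactors were measured, and 3 were lower, 0 higher and 6 not past the threshold, with a median difference of -0.11, against 21.4% lower and 22.5% higher over all genes. The Sin3 scaffolds of the histone deacetylase complex were both lower. Sin3b read 8.84, 8.80 and 8.67 after DAC/TSA, against 9.80, 10.07 and 9.94, and was 2.24-fold lower (adjusted p = 4.42e-06). Its second probe gave -0.69 ± 0.11. Sin3a was 1.35-fold lower (-0.43 ± 0.11, adjusted p = 0.00793), a call that did not hold without any of 5 single arrays: DAC/TSA 2 or 3 and untreated 1, 2 or 3 (adjusted p from 0.014 to 0.038). It was also lost with median scaling (0.0462) and neqc (0.0177).

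Ep300, which encodes the acetyltransferase p300, read 8.60, 8.52 and 8.54 in DAC/TSA cultures, against 9.57, 9.35 and 9.30 in untreated cultures. It was 1.81-fold lower, with no overlap between the groups (adjusted p = 2.90e-05). Its relative Crebbp gave -0.18 ± 0.08 (adjusted p = 0.0921), and Set and Hdac2 gave 0.17 ± 0.11 and 0.24 ± 0.20 (0.218 and 0.32). Ctbp2, a partner of Klf3, gave -0.11 ± 0.11 by its brightest probe (adjusted p = 0.417), while its dimmer probe gave -0.51 ± 0.08 (0.000332), so its probes disagree.

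Of 18 genes known to act upstream of KLFs, 9 were measured: 1 was higher, 1 lower and 7 did not pass, with a median of -0.04, against 22.5% higher and 21.4% lower over all genes. Fbxw7 made it 2 lower in 5 alternatives, among them without untreated array 1 and with the replicate number as a block. The pair that changed belongs to the MEK5-ERK5-MEF2 route that is known to induce Klf2 and Klf4 in endothelium, and it moved in opposite directions. Mapk7 (ERK5), Mef2a and Mef2d of this route had no named kept probe, and its part in the KLF differences was not tested. Map2k5, the kinase MEK5, read 7.55, 7.60 and 7.62 after DAC/TSA, against 8.65, 8.61 and 8.55, and was 2.02-fold lower (adjusted p = 3.02e-06; second probe -0.43 ± 0.08). Mef2c read 7.41, 7.24 and 7.52 after DAC/TSA, against 6.60, 6.53 and 6.43, and was 1.83-fold higher (adjusted p = 3.42e-05; second probe 0.45 ± 0.08).

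Other upstream genes did not pass by their brightest probe. Fbxw7, part of a ubiquitin ligase that degrades Klf2 and Klf5, gave -0.37 ± 0.10 (adjusted p = 0.0107). It passed without untreated array 1 (0.00113), and with the replicate number as a block (0.00178). Smad2, of the TGFβ pathway, gave -0.23 ± 0.09 (0.0559) and Smurf1, a ligase of Klf2, gave 0.11 ± 0.10 (0.379) by its brightest probe. Its other probes gave 0.31 ± 0.08 (0.00981) and -0.0047 ± 0.08 (0.967), so they disagree.

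Of 22 genes known as KLF targets in other cells, 15 were measured. Among them 2 were higher, 5 lower and 8 not past the threshold, with a median of -0.23, against 22.5% higher and 21.4% lower over all genes. With median scaling 1 was higher and 1 lower, and without DAC/TSA array 1 or 3 it was 1 and 3. Without DAC/TSA array 2 or untreated array 3 it was 1 and 4. The list did not move as 1 block with the factors. Thbd and Nos3, which Klf2 activates in endothelium, had differences of opposite sign, that of Thbd being negative as for Klf2. Nos3, endothelial nitric oxide synthase, was 1.29-fold higher (0.36 ± 0.09, adjusted p = 0.00578), with 3 probes of the same sign and mean log2 signals of 5.94 to 6.14 over all arrays. That call did not hold without DAC/TSA array 1, 2 or 3 or untreated array 3 (adjusted p from 0.0134 to 0.0297). Thbd, thrombomodulin, gave -0.49 ± 0.16 (adjusted p = 0.0228) and passed without untreated array 1 (0.00144) or with the replicate number as a block (8.35e-05).

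Ccl5, the chemokine RANTES whose activator in T cells is Klf13, was higher while Klf13 was lower. It read 9.50, 9.49 and 9.73 after DAC/TSA, against 8.56, 8.74 and 8.73 in untreated cells, a 1.86-fold higher level (adjusted p = 2.95e-05). Cdkn1a, the p21 gene that Klf4 and Klf6 activate, gave -0.23 ± 0.08 (adjusted p = 0.0289) by its brightest probe and gave -0.15 ± 0.10 (0.229) and -0.33 ± 0.09 (0.00832) by its other probes, of which the dimmest passed.

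The smooth muscle genes Acta2 and Tagln, which Klf4 represses in smooth muscle, were lower together with Klf4. Acta2 was 6.52-fold lower (-2.70 ± 0.09, adjusted p = 1.59e-08), and its 4 probes ranged from -2.70 to -1.50. Tagln, detected on 1 of 3 DAC/TSA and 3 of 3 untreated arrays, gave -0.38 ± 0.09 (adjusted p = 0.00439), which did not hold without DAC/TSA array 1 or 3 or untreated array 3 (0.0135, 0.0251 and 0.0213). Pdgfa, a growth factor gene activated by Klf5, was 1.42-fold lower (adjusted p = 0.000797; 0.103 with median scaling). Col1a1 and Tgfbr1, known as Klf6 targets, were 1.51-fold and 1.28-fold lower (0.000803 and 0.00701), and with median scaling neither passed (0.0605 and 0.14). The Tgfbr1 call was lost without any single array except untreated array 3 (adjusted p from 0.0104 to 0.0293), and with neqc (0.0158). Tgfb1 and Eng of the same target list did not fall, with 0.03 ± 0.09 and 0.03 ± 0.10 (0.807 and 0.788). Eng was detected on 2 of 3 DAC/TSA and 1 of 3 untreated arrays.

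**Figure D4:**
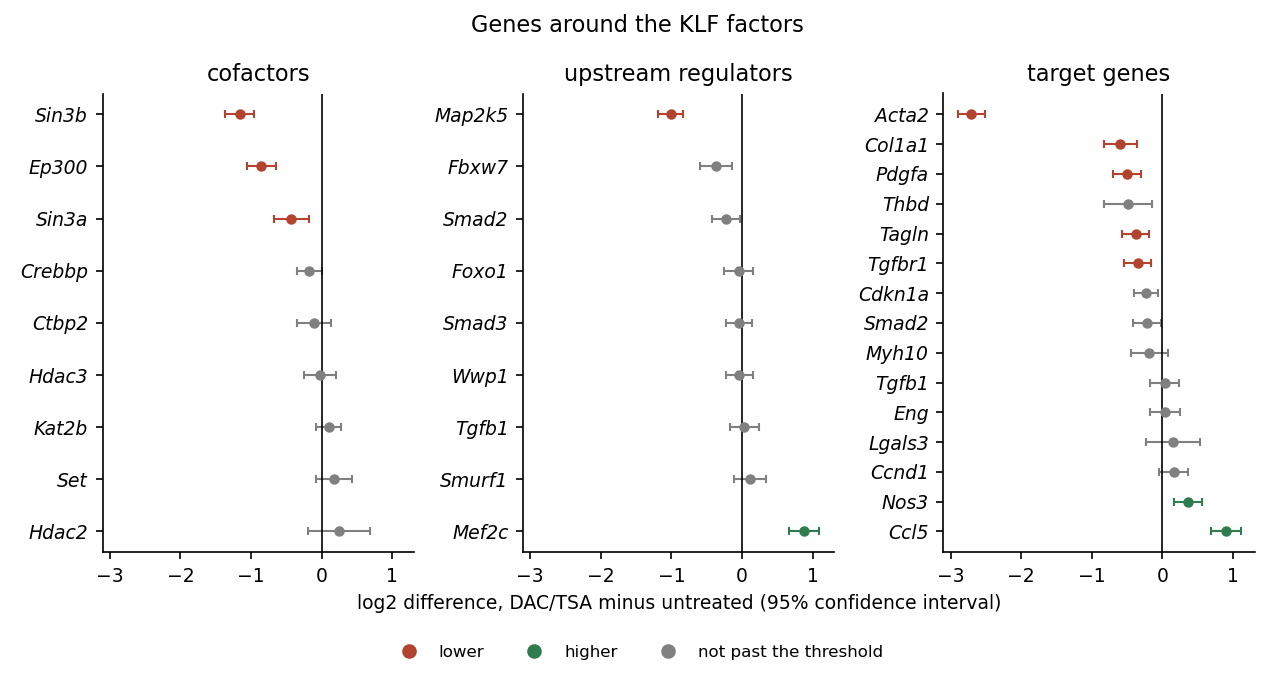
Log2 difference, DAC/TSA minus untreated (horizontal axis), of the measured cofactors, upstream genes and target genes of KLFs, each by its brightest probe, with 95% confidence intervals (n = 3 arrays per group). Sin3b, Ep300, Map2k5 and Acta2 lie left of 0 and Mef2c, Ccl5 and Nos3 right of it.

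The arrays were alike within a group (lowest correlation 0.9922) and less so between groups (highest 0.9617), and 15008 to 15783 probes were detected on DAC/TSA arrays and 14704 to 14802 on untreated arrays. Other cell type markers moved with the same contrast. All 4 measured epithelial markers of 7 listed were higher (summed signal 723 to 884 after DAC/TSA, 196 to 210 in untreated cells), with Epcam and Cdh1 without a named kept probe. Krt18, Krt19 and Cldn4 were detected on no untreated array, while Krt8 was. Of 9 lung epithelial markers, Napsa and Aqp5 were measured and were higher (939 to 1025 and 258 to 261), Napsa being detected on no untreated array, and Nkx2-1 and the surfactant genes had no named kept probe. All 6 measured mesenchymal markers of 8, Acta2 and Col1a1 among them, were lower (9981 to 10891 and 19954 to 20754). Of the 5 immune markers measured, of 10, 3 were higher and 2 lower (474 to 497 and 476 to 490), with Ptprc not among the named kept probes. Lyz2, Laptm5 and Fcer1g were detected on no untreated array, and Cd79b on no DAC/TSA array. The epithelial, lung epithelial and immune sums thus include signals of undetected probes. Of the 2 endothelial markers measured, of 7, 1 was higher and 1 lower (1524 to 1722 and 1545 to 1615). The part of these shifts in the KLF differences was not tested.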

How the data were processed

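RNA of 6 cultures of TC-1/A9 cells, 3 treated with DAC/TSA and 3 untreated, was measured on 1 array each, and the labels of treatment and the titles gave the groups. The series calls the cultures biological replicates. The authors summarised the bead signals, and the deposited intensity of each probe is linear and not normalised. A deposited detection p-value stands beside each intensity. The authors also gave log2 values of 16148 probes after quantile normalisation with limma, whose version is not given in the sources used here.

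The 45281 deposited intensities were quantile-normalised and log2-transformed with no background correction, as the study describes. A detection p not above 0.01 on 1 or more arrays kept 17445 probes and removed 27836. The authors' log2 table differed from these values by no more than 0.0125. Of the kept probes 13943 carried 1 gene symbol in the annotation, and 3502 were unnamed or had several. The brightest kept probe, by mean log2 signal, stood for a gene. The comparison of DAC/TSA with untreated used limma 3.58.1 (R 4.3.3; lmFit, eBayes, two-sided, Benjamini-Hochberg over kept probes, threshold 0.01), tested on simulated data. With 3 arrays per group, their number limits the precision.

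All KLF genes were named. From each list of cofactors, upstream genes and targets, at most 8 past the threshold with the largest difference were named. So were the 3 that did not pass with the smallest adjusted p. Ctbp2, Tgfb1 and Eng were singled out after their values were seen. The family and the lists were chosen with earlier results of these data known. Deviations from the group means correlated between arrays of the same replicate number (0.633, 0.244 and 0.36). Numbers 2 and 3 correlated about as well when crossed (0.367 and 0.379), so whether the numbers pair the cultures stays unclear. The main fit did not pair them, and the replicate number entered only as a block in 1 alternative. Alternatives were median scaling, neqc background correction (offset 16), no filter, detection on at least 3 arrays, the authors' table, the replicate number as a block, the mean of a gene's probes, a threshold of 0.05 and leaving out single arrays. After the data had been seen, leaving out replicate 1 of both groups was added, since it deviated most alike.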

Additional observations from a re-analysis of the deposited data

How the results depend on the processing

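Across 14 alternatives, Klf2, Klf3, Klf4, Klf7, Klf13 and Klf16 stayed lower and past the threshold, with differences between -2.06 (Klf3, neqc) and -0.84 (Klf16, mean of its probes). Klf9 failed with median scaling only, and Klf6 passed in 7 of 15 settings, the main one included. Besides the losses without single arrays, Klf6 was lost with median scaling (-0.26, adjusted p = 0.209), with neqc (-0.33, 0.0128) and with the mean of its probes (-0.28, 0.0178). Klf5 changed sign, with 0.030 under median scaling, 0.0051 without DAC/TSA array 3 and 0.012 without untreated array 1. It ranged from -0.085 to 0.012 without single arrays and never passed the threshold. Median scaling moved the median of all genes to 0.09 and left 3243 probes called (1964 higher and 1279 lower), against 6745 (3371 and 3374). The count of lower KLF genes was 6 with median scaling, 7 with neqc or the mean of probes, 7 to 8 without single arrays and 8 otherwise. Of all genes, 8.4% were lower with median scaling, 19.6% with neqc and 21.7% with the mean of probes. Without single arrays the share was 15.98% to 22.15%. With the replicate number as a block, 8 of 9 KLF genes were lower while 27.3% of all genes were, and apart from Sp1, Fbxw7 and Thbd the block changed no call of a named gene. Median scaling also ended the calls of Sin3a, Col1a1, Pdgfa, Tagln, Tgfbr1 and Nos3 (adjusted p from 0.0224 to 0.14), and neqc those of Sin3a (0.0177) and Tgfbr1 (0.0158), and the cause was not tested. Signals near background limit Klf3, the second probes of Klf6 and Klf16, Sp1, Tagln, Nos3 and Eng, and the markers Krt19, Napsa and Lyz2.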
